A study of Mus musculus with 19 samples.

Results

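The lysosome genes described here are 32 genes whose products make up the lysosome, taken by symbol from the deposited table of counts per gene: 8 membrane proteins, 9 proteases, 6 glycosidases, 5 proteins that handle lipids, 3 subunits of the proton pump and the regulator Tfeb. They were 32 of the 55836 genes in the table, and all 32 were among the 13597 genes with enough counts to be tested.

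Lysosomes are acidic compartments in which hydrolases digest material delivered by endocytosis, phagocytosis and autophagy. The vacuolar proton pump keeps them acidic, membrane glycoproteins such as Lamp1 and Lamp2 line them, and transporters such as Npc1 and Npc2 pass the products, including cholesterol, back to the cell. Tfeb, a transcription factor, is known to switch on many of these genes together through a palindromic DNA element called CLEAR, and macrophages, which take up particles and lipid, are rich in several of the members.

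The RNA came from livers of male wild-type (WT) C57BL/6 mice, 8 weeks old at the start, which ate 1 of 2 diets for 8 weeks while receiving a daily gavage. The control diet (CD) held 10 kcal% fat with matching sucrose. The MASH diet (MD), which models metabolic dysfunction-associated steatohepatitis, held 40 kcal% fat with fructose and 2% cholesterol. The gavage was a Tween 20 vehicle in water (Veh) or the same vehicle with 2 mg of polyethylene microplastics (PE) per mouse. With 1 poly(A) library per mouse, this gave 4 livers of CD + Veh and 5 livers each of CD + PE, MD + Veh and MD + PE. Comparisons of PE with vehicle within a diet ask what the particles did to the liver, and comparisons of MD with CD ask what the diet did.

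The libraries held 10398820 to 15456729 counts, with 13406037 or more in each vehicle library and 12757617 or fewer in each PE library. Vehicle libraries carry lower library numbers than PE libraries throughout, so PE and library order cannot be told apart. Within each gavage, CD libraries carry lower numbers than MD libraries, so diet and library order cannot be told apart either. A second division lay between library numbers 45 and 46, inside MD + Veh: the ribosomal pseudogene Rps6-ps4 had 1088 to 1690 counts in the 7 libraries before it and 0 in the 12 after it, which include MD + Veh replicates 4 and 5. Levels are given in CPM, counts per 1000000 counts of the library after scaling between libraries. Hepatocyte markers summed to 49280.1 CPM or more in every library, but to less on MD than in CD + Veh. The sums were 72273 to 88186 CPM in CD + Veh, 64261 to 92400 in CD + PE, 50892 to 64671 in MD + Veh and 49280.1 to 65339 in MD + PE. In MD + Veh against CD + Veh, 3 of these 6 markers were called lower and 1 higher, where 10.4% of all genes were called. CD + PE replicate 2 stood apart by its Kupffer cell markers (7 genes, summed 461 CPM against 81.1 to 119 in the other 4 libraries of its group) and its red blood cell markers (443 against 109 to 134 CPM). Its markers of monocytes and recruited macrophages were also the highest of the group (84.0 against 16.8 to 22.5 CPM). So were those of endothelium (172 against 124 to 144), T and B cells (5.70 against 0.988 to 2.31) and neutrophils (3.95 against 1.08 to 1.68). The remaining marker lists were not highest there. MD + Veh replicate 1 stood apart by skeletal muscle genes (2719.8 CPM against 114 as the median of its group). Without MD + Veh replicate 1 the 5 members called in MD + Veh against CD + Veh were called again.

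Many lysosome genes are known as targets of the CLEAR element, so the promoters of the members were searched for its letters. RefSeq promoters of 300 bases, from 250 bases before to 50 after the start of transcription (mouse build GRCm38.p6), were found for 29 of the 32 members; Ctsb, Ctsh and Npc1 had no entry. The letters searched were TCACGTGA for the core of the CLEAR element, the whole element, which adds 1 base on either side of the core, and CACGTG, the E-box inside both. Each is a palindrome, so 1 search covers both strands. The core stood in 7 of 29 members (24.1%), Mcoln1, Cln3, Ctsa, Ctsd, Gla, Atp6v1a and Atp6v0d1, against 1.12% of all 27025 genes with a promoter and 2.19% of the 10106 tested genes with one. The E-box stood in 10 of 29 members (34.5%), those 7 with Lamp1, Ctsl and Glb1, against 8.09% of all genes and 11.6% of those tested, and every core match also counts as an E-box match. Among 83 other lysosome and autophagy genes with a promoter, 22 held the E-box (26.5%) and 7 the core (8.43%). Lamp1 held 4 copies of the E-box within its last 61 bases before the start. A match is a run of letters and not a measured binding site.

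**Figure D1:**
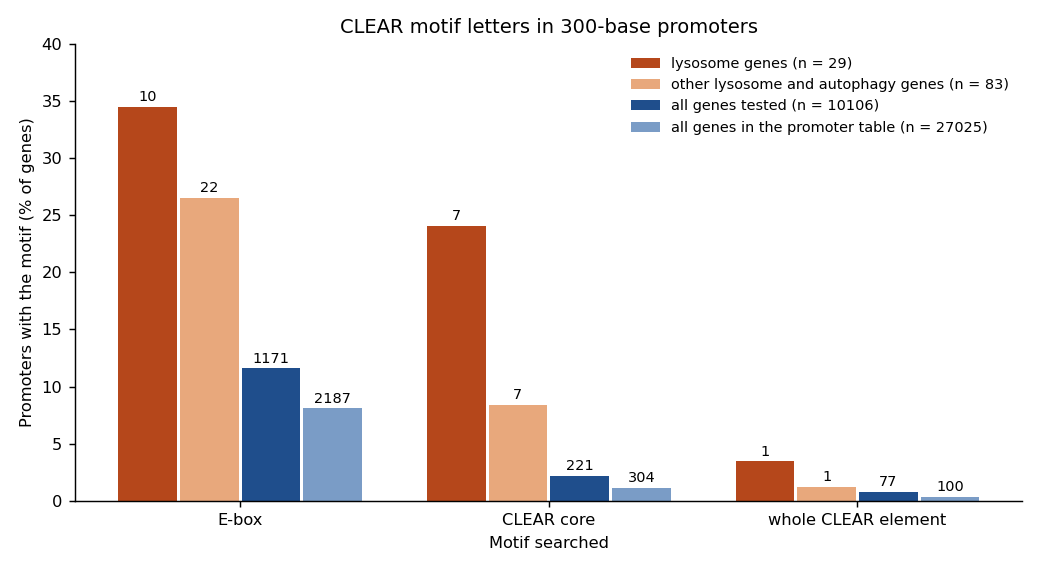
Share of genes whose 300-base promoter holds the E-box, the CLEAR core or the whole element, in percent, for the 29 lysosome genes with a promoter, 83 other lysosome and autophagy genes, all genes tested and all genes in the promoter table; numbers above the bars count the genes. The core stood in 24.1% of the lysosome genes, 8.43% of the other lysosome and autophagy genes and 2.19% of the genes tested. The E-box stood in 34.5%, 26.5% and 11.6% of the same sets.

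The stretches of Lamp1, Mcoln1 and Ctsl are shown because these genes differed between groups and carry the letters, and that of Cln3 because it alone among the members holds the whole element. Each is read from the mouse genome GRCm39 in the direction of transcription, with the E-box in capitals for Lamp1 and Ctsl and the core in capitals for Mcoln1 and Cln3, and each overlaps an annotated exon of its own gene in GENCODE vM39.
Lamp1, chr8:13209131-13209160, plus strand: ggCACGTGaccacatCACGTGcggaacgga
Mcoln1, chr8:3550462-3550491, plus strand: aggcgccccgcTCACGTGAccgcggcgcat
Ctsl, chr13:64518553-64518582, minus strand: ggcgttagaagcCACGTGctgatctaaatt
Cln3, chr7:126182512-126182541, minus strand: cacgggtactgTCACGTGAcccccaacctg
Of the 10 members with an E-box, 3 were called in at least 1 of the comparisons of groups (Lamp1, Mcoln1 and Ctsl), and of the 19 promoters without one, 4 belonged to called members (Ctsc, Npc2, Psap and Tfeb). The 3 did not share a direction: Lamp1 was higher on MD, and Mcoln1 and Ctsl were lower. The share of all genes called in at least 1 comparison was not counted. The counts of 3 of 10 and 4 of 19 therefore say nothing about the motif.

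In CD + Veh livers the 32 genes spanned more than 2 orders of magnitude per length. Per kilobase of canonical transcript, the highest levels were those of the membrane glycoproteins Lamp2 (252 CPM per kb) and Lamp1 (200.2), followed by the aspartic protease Ctsd (161) and the cysteine proteases Ctsh (126) and Ctsl (105). The lowest levels were those of the tetraspanin Cd63 (2.66), and of Gla (1.32), which encodes alpha-galactosidase A. Tfeb stood at 3.78 CPM per kb, 29th of the 32. In the same order the macrophage genes Ctss (18.6), Laptm5 (5.59) and Cd68 (3.81) held places 18, 27 and 28 of the order. Summed over the members, the level was 4172 to 4546 CPM in CD + Veh and 4333 to 4674 in CD + PE. On MD it was 4387 to 4744 CPM with vehicle and 4317 to 4948 with PE, with ranges that overlapped between all groups.

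**Figure D2:**
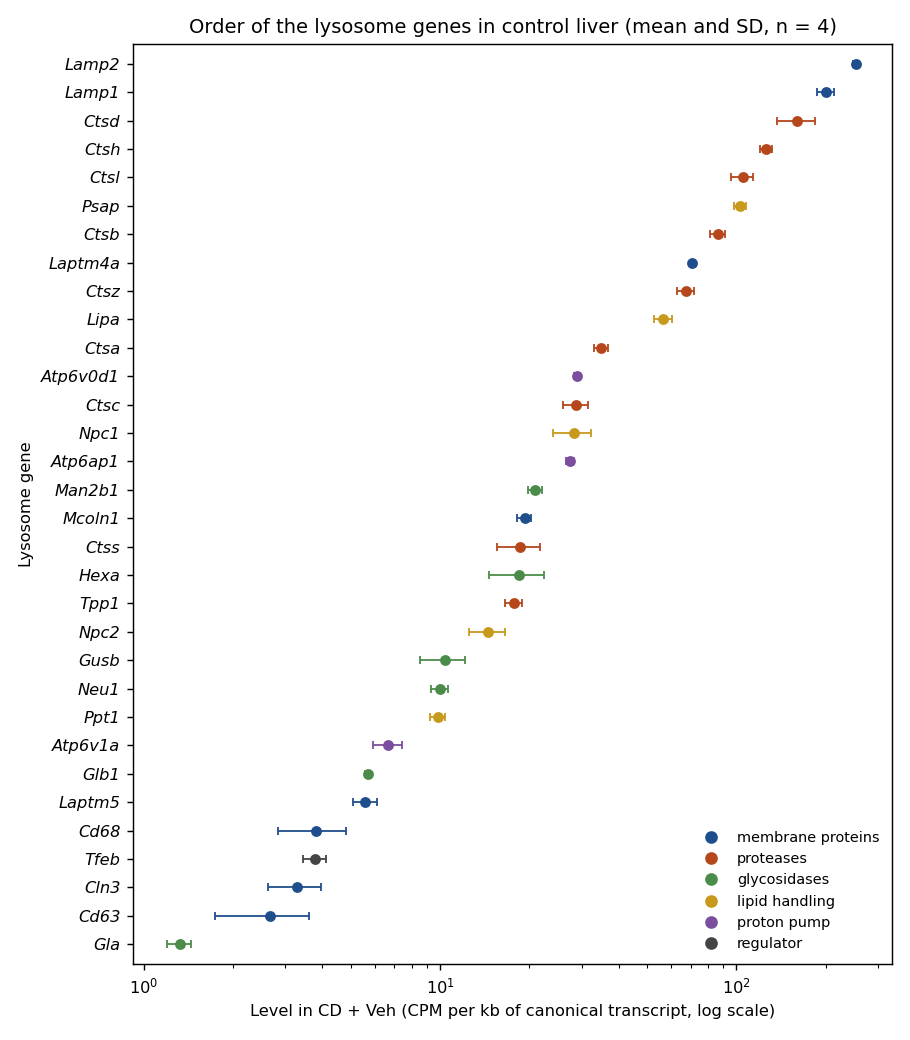
Level of each lysosome gene in the 4 CD + Veh livers, in CPM per kilobase of canonical transcript on a log axis (point, mean; bar, SD), coloured by role. Lamp2 (252) and Lamp1 (200.2) lead the order and Gla (1.32) closes it.

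A gene was called when edgeR's quasi-likelihood test over all 13597 genes gave an adjusted p below 0.05 and a log2 fold change of at least 0.38 in size. No lysosome gene was called for PE on either diet. In CD + PE against CD + Veh the count was 0 of 32, where 2.92% of all genes were called. In MD + PE against MD + Veh it was 0 of 32, where 1.08% were called. An unadjusted p below 0.05 was reached by 10 of 32 members in each of these comparisons (17.5% and 15.7% of all genes), and DESeq2 also called 0 in both.

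Between the MASH and control diets a small number of members differed, in both directions. In MD + Veh against CD + Veh 5 of 32 were called (10.4% of all genes): Ctsb and Psap rose, and Mcoln1, Ctsl and Npc1 fell. In MD + PE against CD + PE 3 of 32 were called (4.61% of all genes): Psap rose, and Ctsc and Ctsl fell. In MD + PE against CD + Veh, which changes diet and gavage at once, 7 of 32 were called (14.6% of all genes): Lamp1 and Psap rose, and Mcoln1, Ctsc, Ctsl, Npc2 and Tfeb fell. The median log2 fold change of the 32 was 0.01, 0.02 and 0.09 in these comparisons, beside -0.00, -0.02 and -0.00 for all genes tested. All comparisons against CD + Veh share its 4 libraries, so their calls are not independent of each other.

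Livers of the groups compared did not overlap for 7 of 32 members in CD + PE against CD + Veh, where this held for 7.83% of all genes tested. The same count was 10 (16.2% of all genes) for MD with vehicle, 1 (3.57%) for PE on MD, 6 (6.18%) in MD + PE against CD + PE and 14 (18.8%) in MD + PE against CD + Veh. Lamp2, Laptm4a, Mcoln1, Ctsd and Glb1 were among the 7 for PE on CD.

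**Figure D3:**
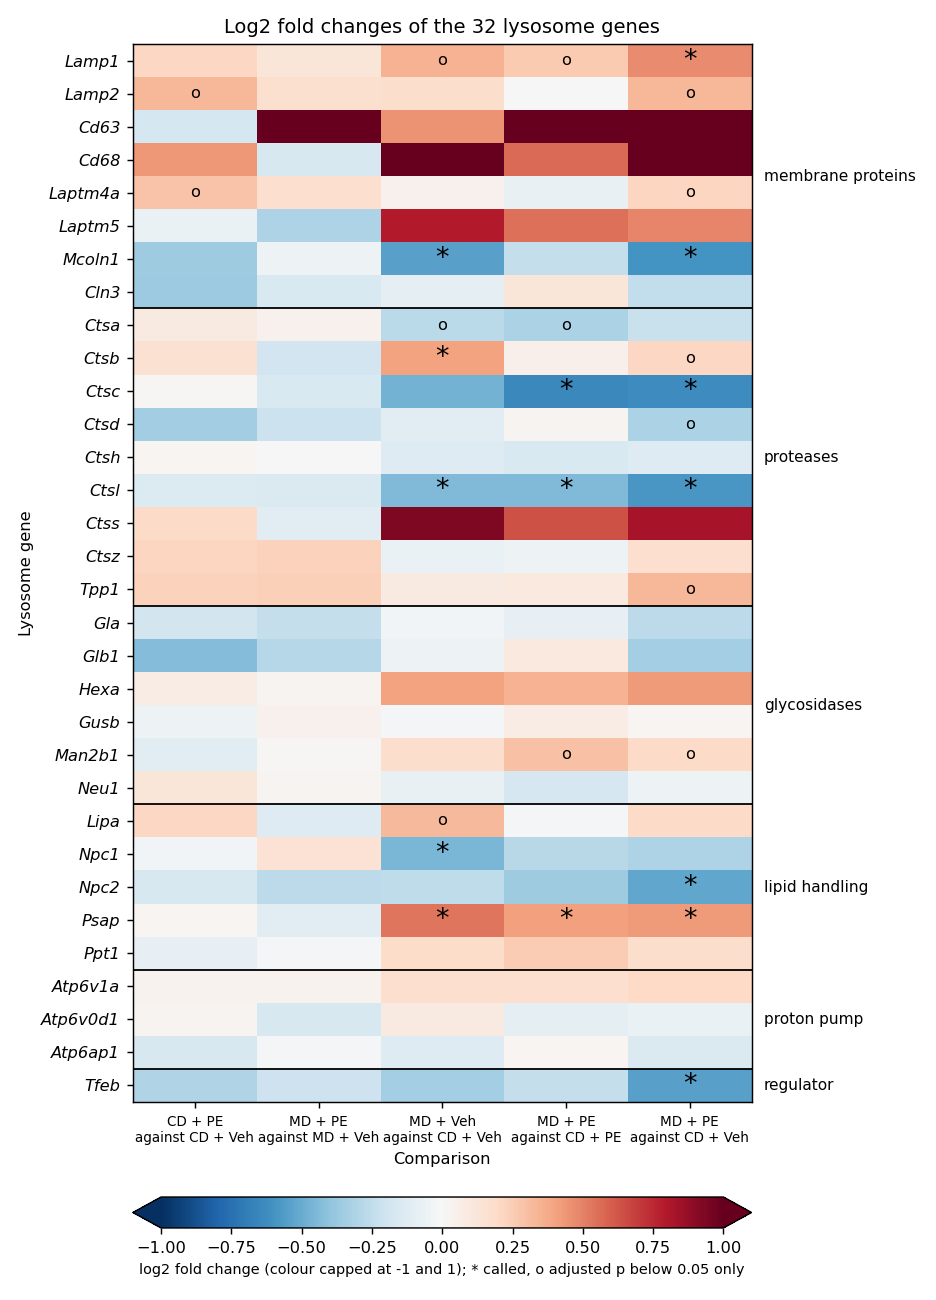
Log2 fold changes of the 32 lysosome genes (lines, grouped by role) in 5 comparisons (columns), red for higher and blue for lower in the first-named group, with colour capped at -1 and 1. Stars mark called genes and circles an adjusted p below 0.05 with a smaller fold change; Psap and Ctsl carry a star in each of the 3 comparisons of MD with CD, and neither PE column holds a star.

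The 8 membrane proteins summed to 1116 to 1214 CPM in CD + Veh and 1319 to 1429 in CD + PE, without overlap, and to 1246 to 1445 in MD + Veh and 1395 to 1567 in MD + PE, which overlap. Inside MD + Veh the sum was 1246, 1331 and 1404 CPM before the library division and 1445 and 1432 after it. All CD + Veh libraries lie before that division and all CD + PE libraries after it. Lamp1 and Lamp2 make up most of these sums. Among these members, Lamp1 was the member with the lowest adjusted p in MD + PE against CD + Veh. This heavily glycosylated protein coats the inner face of the lysosomal membrane, and its gene lies on chromosome 8 from 13209121 to 13227360 (GRCm39). Its level was 474, 519, 555 and 510.3 CPM in the CD + Veh livers and 585, 541, 611, 624 and 606 in those of CD + PE. The MD livers held 608, 644, 662, 681 and 688 CPM with vehicle and 662, 674, 698, 773 and 755 with PE. All 5 MD + PE livers lay above all 4 CD + Veh livers and above all 5 CD + PE livers, while CD + PE overlapped CD + Veh in 1 library. Lamp1 rose by 0.47 on the log2 scale in MD + PE against CD + Veh (SE 0.07, adjusted p = 8.65e-05). That call was lost with the library division as a covariate (0.37, adjusted p = 0.0624). It differed by 0.35 between the diets with vehicle (adjusted p = 0.00198) and by 0.26 in MD + PE against CD + PE (adjusted p = 0.0183), both under the minimum fold change.

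Lamp2, the partner of Lamp1 that also serves chaperone-mediated autophagy, had an adjusted p below 0.05 for PE on CD. Its level was 440.4, 445, 460.1 and 449 CPM in CD + Veh and 597, 526, 613, 566 and 522 in CD + PE, with no overlap between the groups. The log2 difference was 0.33 (SE 0.08, adjusted p = 0.0270), under the minimum fold change. Laptm4a, a small membrane protein of late endosomes and lysosomes, also separated the groups, at 129 to 131 CPM in CD + Veh and 151, 165, 155, 162 and 159 in CD + PE (log2 difference 0.28, SE 0.06, adjusted p = 0.00947). On MD neither reached an adjusted p below 0.05 for PE, with log2 differences of 0.16 for Lamp2 and 0.17 for Laptm4a. Both also differed across the library division inside MD + Veh: Lamp2 was at 429, 482 and 529 CPM in replicates 1 to 3 and at 557 and 531 in replicates 4 and 5, and Laptm4a at 126, 127 and 129.7 against 142 and 143. With that division as a covariate the CD differences were 0.15 for Lamp2 and 0.13 for Laptm4a (adjusted p = 0.690 and 0.625).

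Mcoln1, which encodes the lysosomal cation channel TRPML1, fell in both MD groups against CD + Veh. The gene lies on chromosome 8 from 3550452 to 3565253 (GRCm39), and the core printed above is near its start. The 4 CD + Veh livers held 37.7, 40.7, 38.7 and 42.6 CPM and the 5 CD + PE livers 31.2, 25.4, 30.8, 34.1 and 34.1. On MD the values were 27.4, 25.95, 27.5, 28.4 and 27.6 CPM with vehicle and 23.9, 20.97, 29.4, 26.5 and 31.5 with PE. All 15 other livers lay below all 4 CD + Veh livers. The log2 fold change was -0.54 in MD + Veh (SE 0.10, adjusted p = 0.00120) and -0.59 in MD + PE (SE 0.10, adjusted p = 0.000326), each against CD + Veh. Between the diets with PE it was -0.24, with overlapping groups (adjusted p = 0.158). For PE on CD it was -0.36 (95% interval -0.57 to -0.14, adjusted p = 0.0535), and with the replicate number as a block it was -0.40 (adjusted p = 0.0167), the single member called for PE under that setting.

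Cd63 and Cln3 were not called by edgeR with all libraries. Cd63, a tetraspanin of late endosomes, was at 15.3 and 28.6 CPM in MD + PE replicates 2 and 4 and between 1.91 and 4.55 in the other 3, so its log2 difference of 1.75 against CD + PE (SE 0.55, adjusted p = 0.0627 by edgeR, 0.0314 by DESeq2) came mostly from 2 livers. It was 1.00 without replicate 4 (adjusted p = 0.258), and edgeR called it without replicate 1, 3 or 5 (adjusted p = 0.0441, 0.0201 and 0.0479). These 2 livers stood apart in different markers. Replicate 2 was high in epithelial markers: those of bile duct summed to 141 CPM, with Krt19 at 58.7 and Epcam at 29.2, against 36.6 to 48.6 in replicates 1, 3 and 5, and those of intestine summed to 254 CPM, with Muc13 at 41.01, against 113 to 130 in the other 4. Replicate 4 was high in markers of lipid-associated macrophages, at 199 CPM against 52.4 to 57.6 in the other 4, with Gpnmb at 38.0 and Mmp12 at 23.3. Its bile duct sum of 106 CPM was mostly Spp1 (85.3), a gene in both lists, with Krt19 at 1.37. The part of these cells in the Cd63 values was not tested. Cln3, the protein lost in juvenile Batten disease, had log2 fold changes from -0.36 to 0.12 over the 5 comparisons.

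**Figure D4:**
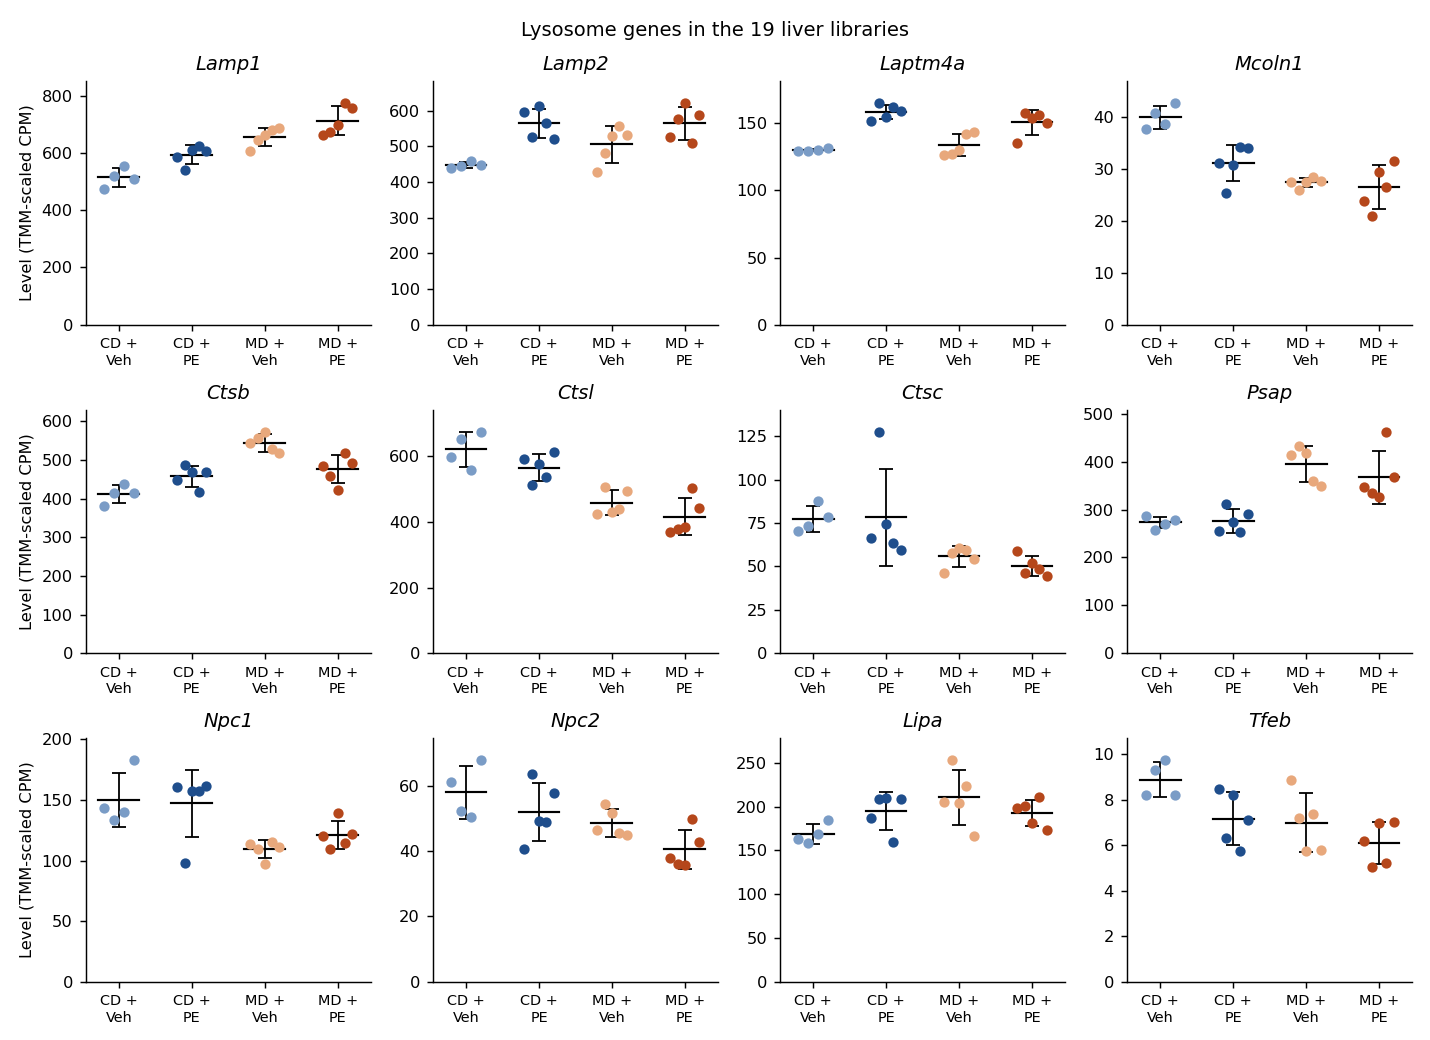
Level of 12 lysosome genes in each of the 19 livers (points; TMM-scaled CPM on axes from 0), with the mean (line) and SD (bar) of each group; the place of a point within its group has no meaning. Psap in both MD groups lies above the CD groups, Ctsl and Mcoln1 lie below CD + Veh, and Lamp2 and Laptm4a in CD + PE lie above CD + Veh.

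Cd68, Laptm5 and Ctss are lysosomal genes of macrophages: Cd68 encodes macrosialin, Laptm5 a membrane protein of blood-borne cells, and Ctss the protease that trims the invariant chain for antigen presentation. All 3 were highest in CD + PE replicate 2, the library rich in markers of Kupffer cells and of other immune cells, at 18.9, 33.5 and 79.03 CPM, against 2.37 to 3.72, 8.54 to 9.80 and 12.4 to 19.2 CPM in the other 4 CD + PE livers. Fewer cells of a type and less RNA per cell cannot be told apart in bulk tissue.

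With vehicle, every MD liver lay above every CD liver for these 3 genes. Cd68 was at 5.16, 2.79, 5.10 and 5.19 CPM in CD + Veh and at 8.49, 10.96, 10.9, 10.5 and 10.1 in MD + Veh, a log2 difference of 1.16 (SE 0.47, adjusted p = 0.111). Ctss was at 30.3, 21.99, 21.9 and 27.6 CPM in CD + Veh and at 45.6, 58.2, 56.5, 36.3 and 45.9 in MD + Veh (log2 difference 0.93, SE 0.41, adjusted p = 0.139), and Laptm5 at 13.1 to 16.2 and 17.2 to 31.6 CPM (0.80, SE 0.35, adjusted p = 0.139). The groups did not overlap for any of the 3, as for 6 members in this direction among the 32 and 7.37% of all genes. None was called with the spread estimated over all 4 groups, and all 3 were called in a fit of these 2 groups alone. Without CD + PE replicate 2 the same differences had adjusted p = 0.00188 for Cd68, 0.00605 for Ctss and 0.0125 for Laptm5, all past the minimum fold change.

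The comparisons that use CD + PE changed when the same library was left out. In MD + PE against CD + PE the log2 differences of Cd68, Ctss and Laptm5 were 0.56, 0.63 and 0.55 (adjusted p = 0.496, 0.357 and 0.356) with it and 1.62, 1.45 and 1.19 (adjusted p = 0.000375, 0.000470 and 0.00196) without it. In CD + PE against CD + Veh they were 0.43, 0.19 and -0.07 with it and -0.62, -0.62 and -0.70 without it (adjusted p = 0.201, 0.154 and 0.0939). Kupffer cell markers moved alongside, at 95.8 to 168 CPM in CD + Veh, 192 to 287 in MD + Veh and 164 to 288 in MD + PE. All 7 had a log2 fold change above 0 in MD + Veh against CD + Veh, and none was called. Markers of monocytes and recruited macrophages summed to 21.8 to 30.7 CPM in CD + Veh and 47.1 to 70.9 in MD + Veh. Most of each sum was Lyz2, at 17.9 to 27.5 CPM in CD + Veh and 44.6 to 62.9 in MD + Veh. Lyz2 was the 1 marker called among the 4 tested, of which 3 had a log2 fold change above 0 and 1 below. The part of these cells in the 3 genes was not tested.

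**Figure D5:**
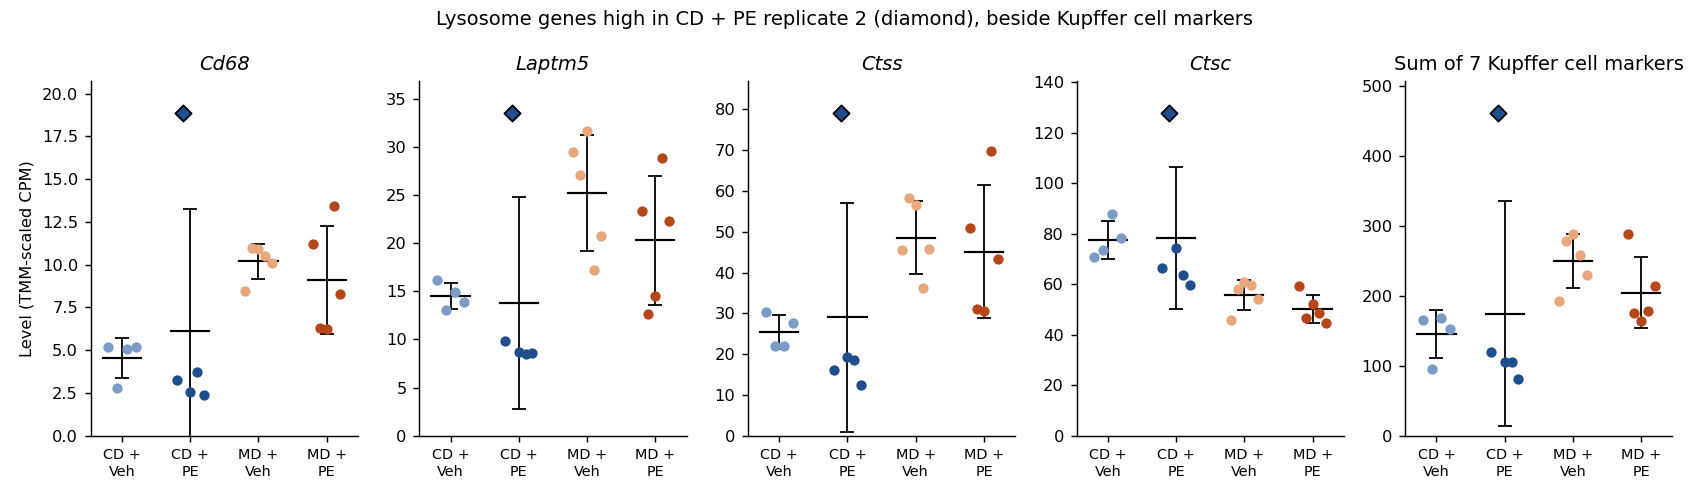
Level (TMM-scaled CPM, axes from 0) of Cd68, Laptm5, Ctss and Ctsc and the sum of 7 Kupffer cell markers in each liver (points), with the mean (line) and SD (bar, drawn down to 0 at most). CD + PE replicate 2, the diamond, is the highest point in every panel, at 18.9, 33.5, 79.03, 128 and 461 CPM.

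Of the 9 proteases, Ctsb rose with the diet in the vehicle comparison, Ctsl fell in each comparison of MD with CD, Ctsc fell in those with MD + PE, and the rest were not called. Ctsl, an endopeptidase that degrades protein in the lysosome, is encoded on chromosome 13 from 64507151 to 64518704 (GRCm39). On CD it was at 597, 654, 559 and 675 CPM with vehicle and 591, 513, 577, 536 and 614 with PE. On MD it was at 425, 505, 429.7, 438 and 495 CPM with vehicle and 369, 379, 386, 503 and 443 with PE. All 10 MD livers lay below all 9 CD livers. Its log2 fold change between the diets was -0.44 with vehicle (SE 0.09, adjusted p = 0.00384) and -0.44 with PE (SE 0.09, adjusted p = 0.00439), and it was -0.58 in MD + PE against CD + Veh (SE 0.09, adjusted p = 0.000211). Ctsl was called in these 3 comparisons under every setting tried, each of the 19 fits that left out 1 library included.

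Ctsb, a cysteine protease made in hepatocytes and macrophages alike, moved the other way. Its level was 381, 415, 439 and 415 CPM in CD + Veh and 544, 558, 574, 529 and 518 in MD + Veh, without overlap. The log2 fold change was 0.40 (SE 0.07, adjusted p = 0.000650), and 0.37, under the minimum, without CD + Veh replicate 1. In MD + PE the levels of 485, 460.0, 424, 519 and 492 CPM overlapped CD + Veh (0.21, adjusted p = 0.0392). Between the diets with PE the log2 difference was 0.05 (adjusted p = 0.681). Ctsb had the lowest adjusted p of the members for the interaction of PE and diet, the difference between the PE effects on MD and on CD, at a log2 value of -0.35 (SE 0.09, adjusted p = 0.238).

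Ctsc, the dipeptidyl peptidase that activates serine proteases of immune cells, was at 70.6, 73.3, 87.8 and 78.3 CPM in CD + Veh and 59.1, 46.4, 52.2, 48.5 and 44.7 in MD + PE (log2 fold change -0.63, SE 0.17, adjusted p = 0.0125; with the library division as a covariate -0.68, adjusted p = 0.166). Against CD + PE, at 66.3, 128, 74.4, 63.5 and 59.7 CPM, it was -0.64 (SE 0.16, adjusted p = 0.0200). The value of 128 CPM belongs to the library rich in Kupffer cell markers, and without it the log2 fold change was -0.39 (adjusted p = 0.0156). That call was lost without MD + PE replicate 4 or 5 (adjusted p = 0.0508 and 0.0530). In MD + Veh, at 45.9, 57.9, 60.8, 59.7 and 54.3 CPM, Ctsc did not overlap CD + Veh either (-0.48, adjusted p = 0.0656), and it was called without CD + PE replicate 2 (adjusted p = 0.00255) and by DESeq2 (adjusted p = 0.0466).

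The other proteases moved less. Ctsd, the main aspartic protease, was at 318, 320.0, 312 and 416 CPM in CD + Veh and 242, 307, 266, 231 and 299 in CD + PE, without overlap (log2 difference -0.34, adjusted p = 0.0678). Without CD + PE replicate 2 it was called, at -0.40 (adjusted p = 0.0421), and without CD + Veh replicate 4, the highest liver, it was -0.22 (adjusted p = 0.297). Tpp1, a tripeptidyl peptidase, was the sole member whose groups did not overlap for PE on MD, at 64.4 to 69.5 CPM in MD + Veh and 71.6 to 89.0 in MD + PE (0.24, SE 0.07, adjusted p = 0.0797), where 3.57% of all genes did not overlap. On CD its difference was 0.23 (adjusted p = 0.0847), and in MD + PE against CD + Veh 0.33 (adjusted p = 0.00329). Ctsa, which shields Glb1 and Neu1 from breakdown, was lower in MD + PE than in CD + PE by a log2 value of -0.31 (adjusted p = 0.0183), under the minimum. Ctsh and Ctsz stayed between log2 values of -0.15 and 0.23 over the 5 comparisons.

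None of the 6 glycosidases, which remove sugars from glycoproteins and glycolipids, was called. Man2b1, the acid alpha-mannosidase, was at 88.4, 84.0, 85.7, 79.4 and 85.3 CPM in CD + PE and 106, 99.5, 107, 103 and 103 in MD + PE, without overlap (log2 difference 0.30, SE 0.06, adjusted p = 0.00297). That change was smaller than the minimum, although its adjusted p was the lowest of the 32 in that comparison. Glb1, the acid beta-galactosidase, was at 13.4, 13.9, 13.8 and 13.4 CPM in CD + Veh and 9.96, 12.3, 7.24, 11.7 and 9.19 in CD + PE (-0.43, SE 0.14, adjusted p = 0.0894), and was called without CD + PE replicate 2 (-0.52, adjusted p = 0.0490). Hexa, the alpha subunit of beta-hexosaminidase, differed by 0.40 in MD + Veh against CD + Veh (adjusted p = 0.141). Within the libraries before the division, MD + Veh replicates 1 to 3 against CD + Veh, the difference was 0.59 (adjusted p = 0.0286). Gla, Gusb and Neu1 ranged from -0.26 to 0.12.

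The 5 members that handle lipids moved in both directions. Psap, the precursor of the saposins that present sphingolipids to their hydrolases, is encoded on chromosome 10 from 60113431 to 60138380 (GRCm39). On CD it was at 287, 258, 269.6 and 278 CPM with vehicle and 256, 312, 274, 252 and 289.6 with PE. The MD livers held 414.5, 433, 418, 360.0 and 349 CPM with vehicle and 346, 334, 326, 462 and 368 with PE. All 10 MD livers lay above all 9 CD livers. Psap rose by 0.53 in MD + Veh against CD + Veh (SE 0.10, adjusted p = 0.00125), 0.41 in MD + PE against CD + PE (SE 0.09, adjusted p = 0.0110) and 0.43 in MD + PE against CD + Veh (SE 0.10, adjusted p = 0.00445). The last 2 values fell under the minimum without MD + PE replicate 4, to 0.32 and 0.35, and the one against CD + PE without CD + PE replicate 4, to 0.377, with adjusted p below 0.05 in each case.

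Npc1 and Npc2 act in turn to move cholesterol out of the lysosome. Npc1 was called lower in MD + Veh against CD + Veh, and Npc2 in MD + PE against CD + Veh, which changes diet and gavage at once. Npc1 was at 144, 134, 139.8 and 183 CPM in CD + Veh and 114, 109, 97.3, 116 and 112 in MD + Veh, without overlap (log2 fold change -0.45, SE 0.12, adjusted p = 0.0196). The call was lost without CD + Veh replicate 4, the highest of them (-0.33, adjusted p = 0.1005), or without MD + Veh replicate 3, the lowest (adjusted p = 0.0532). Against CD + PE, where replicate 2 stood at 98.0 CPM and the other 4 at 157 to 162, MD + PE differed by -0.28 (adjusted p = 0.168), and by -0.40 without that library (adjusted p = 0.00671). Npc2 was at 61.1, 52.4, 50.5 and 67.9 CPM in CD + Veh and 37.9, 36.2, 35.8, 49.99 and 42.7 in MD + PE (-0.52, SE 0.13, adjusted p = 0.00641). The groups were apart by less than 1 CPM, between 50.53 in the lowest CD + Veh liver and 49.99 in the highest MD + PE liver. The call was lost with the library division as a covariate (-0.34, adjusted p = 0.343). Between the diets Npc2 was not called, and the groups overlapped. Its log2 difference was -0.26 with vehicle (adjusted p = 0.185) and -0.36 with PE (adjusted p = 0.0790).

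Lipa, the acid lipase that frees cholesterol and fatty acids from lipoprotein esters, was at 163, 158, 169 and 185 CPM in CD + Veh and 205, 253, 205, 224 and 166 in MD + Veh, overlapping through the last liver. Its log2 difference was 0.32 (SE 0.10, adjusted p = 0.0459), and 0.41 without MD + Veh replicate 5 (adjusted p = 0.00860). Ppt1, which removes palmitate from proteins, ranged from -0.08 to 0.25 over the 5 comparisons.

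The 3 proton pump members were not called in any comparison. Atp6v1a, the catalytic subunit, Atp6v0d1, of the membrane sector, and Atp6ap1, an accessory subunit, had log2 fold changes from -0.16 to 0.20. Tfeb was low and fell in MD + PE against CD + Veh. Its level was 8.21, 9.31, 9.73 and 8.22 CPM in CD + Veh and 6.18, 5.05, 6.95, 5.22 and 7.004 in MD + PE, without overlap (-0.55, SE 0.15, adjusted p = 0.0155). With the library division as a covariate it was -0.40 and not called (adjusted p = 0.374). The difference was -0.34 in MD + Veh and -0.30 in CD + PE against CD + Veh (adjusted p = 0.140 and 0.315), so the estimate was below 0 in all 5 comparisons but passed the test in 1.

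Comparisons that share no library can be set side by side. For PE on CD and PE on MD, the log2 fold change had the same sign in 21 of 32 members (65.6%), beside 60.4% of all genes tested. For the diet with vehicle and the diet with PE, it had the same sign in 23 of 32 (71.9%), beside 69.4% of all genes. No member was called for the interaction of PE and diet (0.00735% of all genes were). For that interaction 4 of 32 had an unadjusted p below 0.05, against 8.77% of all genes, and DESeq2 also called 0. Ctsb, Mcoln1, at 0.31 (adjusted p = 0.536), and Lipa, at -0.33 (adjusted p = 0.521), were among the 4.

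Beyond the 32, 106 further genes of the lysosome and its supply lines were followed. Of 29 other acid hydrolases tested, 1 was called for PE on CD, 5 for the diet with vehicle and 7 in MD + PE against CD + Veh, of which 1, 4 and 5 were lower. Over all genes, 2.92%, 10.4% and 14.6% were called in these comparisons. Scpep1, a serine carboxypeptidase, averaged 42.8 CPM in CD + Veh and 19.3 in MD + PE (log2 fold change -1.15, SE 0.13, adjusted p = 5.49e-06). Gm2a, the activator that hands the ganglioside GM2 to hexosaminidase A, averaged 159 and 86.5 CPM (-0.88, SE 0.07, adjusted p = 1.11e-07). Galc, which cleaves galactosylceramide, fell by 0.93 on the log2 scale in MD + Veh (adjusted p = 0.000305) and by 0.59 in CD + PE (adjusted p = 0.0279), each against CD + Veh.

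Of 15 other proton pump subunits tested, 1 was called for PE on CD (2.92% of all genes) and 2 for the diet with vehicle (10.4% of all genes), all lower. Atp6v1g1, a subunit of the cytosolic sector, fell by 0.46 in CD + PE (SE 0.09, adjusted p = 0.00737), 0.60 in MD + Veh (adjusted p = 0.000195) and 0.70 in MD + PE (adjusted p = 2.1e-05), each against CD + Veh. Over all genes, 397 were called for PE on CD, and 37 with the library division as a covariate. Galc and Atp6v1g1 were not followed under that setting. Tcirg1, a subunit of the membrane sector, fell by 0.42 in MD + Veh (adjusted p = 0.0281).

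Among 19 other lysosomal membrane proteins tested, Gpnmb, a glycoprotein of lipid-laden macrophages, was the one gene called. It was called in each comparison of MD with CD. Over all genes, 10.4% were called with vehicle, 4.61% with PE and 14.6% in MD + PE against CD + Veh. Gpnmb averaged 0.378 CPM in CD + Veh and 5.13 in MD + Veh, which differ by 3.72 on the log2 scale (SE 1.05, adjusted p = 0.0226 by edgeR). That size rests on few counts in CD + Veh, at 0 to 0.808 CPM. Across the library division inside MD + Veh, Gpnmb was at 9.76, 7.06 and 5.25 CPM in replicates 1 to 3 and at 1.08 and 2.47 in replicates 4 and 5. With PE it was at 0 to 0.175 CPM on CD and had a median of 3.86 CPM on MD (adjusted p = 0.00191), and no fold is given against the few counts of the CD + PE livers. Of 21 genes of sorting and nutrient sensing, 2 were called, both in MD + PE against CD + Veh, where 14.6% of all genes were called. Both were higher in MD + PE: Sumf1, which activates sulfatases (0.45, adjusted p = 0.000204), and Mitf, a relative of Tfeb (0.74, adjusted p = 0.0317). Of 20 autophagy genes, 4 were called for the diet with vehicle and 6 in MD + PE against CD + Veh, in equal numbers higher and lower (10.4% and 14.6% of all genes were called). Ulk1, the kinase that starts autophagy, fell by 0.77 in MD + Veh (adjusted p = 0.00143), while Atg7, an enzyme of the conjugation step, rose by 0.55 (adjusted p = 0.00430). Gabarapl1, an Atg8 family member, rose by 0.52 in MD + PE against CD + Veh (adjusted p = 0.0198).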

How the data were processed

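Livers of 19 mice were sequenced as poly(A) libraries. The deposited values are estimated counts per gene, which the authors made by trimming with fastp 0.23.4 and quantifying with Salmon 1.10.3 against GRCm39, as the submitters' processing notes name them. They are whole numbers in the file. All 19 columns were matched to samples by name. Counts were scaled by TMM to CPM. Genes were filtered by filterByExpr, and edgeR 4.0.16 (R 4.3.3, limma 3.58.1) fitted 1 coefficient per group over all 19 libraries (quasi-likelihood test, Benjamini-Hochberg over 13597 genes). All p-values are two-sided. At 10398820 to 15456729 counts per library, a gene at 1 CPM rests on few counts, which limits Cd63, Cd68, Gla and Tfeb most. Depth-based intervals would cover counting error only, so none is given.

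Members and lists were chosen with earlier results of these data known. Each member called in any comparison is described in full, with Tfeb, Mcoln1, Lamp1, Lamp2, Lipa and Npc1 described in any case. From each further list up to 3 called genes with the largest log2 fold change and a mean of at least 5 CPM are named. Cd63, Cd68, Laptm4a, Laptm5, Ctss, Ctsd, Tpp1, Ctsa, Man2b1, Glb1, Hexa and Mitf were given values after these had been seen. The fit was tested on simulated counts, with planted changes larger than those of the called members and with no library division. That test does not cover changes near the minimum fold change. Alternatives were DESeq2 1.42.0, RLE scaling, other filters, robust dispersion, no minimum fold change, only the groups compared, the library division, the replicate number as a block, and leaving out each library. Mice are named as separate animals, and no 2 columns were identical. Canonical transcript lengths and positions came from GENCODE vM39.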

Additional observations from a re-analysis of the deposited data

Results flagged for a closer look

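Within the 4 groups of libraries, 8 of 128 sets of member values held a liver far from its group by Dixon's test, and chance gives about 1 in 20 such sets, or 6.4. Of the 8, 5 belonged to CD + PE replicate 2, the liver with the highest Kupffer cell markers. There Cd68 was at 18.9 CPM (next highest 3.72), Laptm5 at 33.5 (9.80), Ctss at 79.03 (19.2) and Ctsc at 128 (74.4), each the highest of the group, and Npc1 at 98.0 CPM was the lowest (next 157). In CD + Veh replicate 2, Cd68 at 2.79 CPM (next 5.10) and Gusb, which encodes beta-glucuronidase, at 20.7 (next 29.7) were the lowest of their group. Ctsd in CD + Veh replicate 4, at 416 CPM, was above the next liver at 320.0. Without that liver the log2 difference of Ctsd in MD + PE against CD + Veh was -0.18 (adjusted p = 0.238 by edgeR) in place of -0.32.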

How the results depend on the processing

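RLE scaling, both other filters and robust dispersion left the counts of called members as they were: 0 for PE on CD, 5 for MD with vehicle, 0 for PE on MD, 3 for MD with PE, 7 for MD + PE against CD + Veh, and 0 for the interaction. DESeq2 gave 0, 6, 0, 4, 8 and 0 in that order. RLE-scaled levels were 0.9889 to 1.013 times the TMM-scaled ones. Without the minimum fold change 2 members passed for PE on CD, 8 for MD with vehicle, 6 for MD with PE and 13 in MD + PE against CD + Veh. With only the groups compared 9 were called in MD + Veh against CD + Veh, and 11 with only the libraries on 1 side of the division. With the library division as a covariate 4 were called in MD + PE against CD + Veh, where Lamp1, Ctsc, Npc2 and Tfeb were lost (log2 values 0.37, -0.68, -0.34 and -0.40); all CD + Veh libraries lie on one side of the division and all PE libraries on the other. Leaving out 1 library gave 0 to 2, 4 to 9, 0 to 0, 2 to 7, 7 to 9 and 0 to 0 called members. Where leaving out a library raised a count, the highest came without CD + PE replicate 2. The replicate number as a block gave 1 (Mcoln1) in CD + PE against CD + Veh and no other change in the counts. Same-numbered livers were not treated as pairs. Their deviations correlated above 0.1 in 6 of 27 such pairs (median r 0.03), beside 27 of 108 pairs of different number (median r -0.01). The sign turned for uncalled macrophage genes in CD + PE against CD + Veh. Leaving out 1 library gave -0.62 to 0.64 for Cd68, -0.62 to 0.38 for Ctss and -0.70 to 0.078 for Laptm5, with each lowest value without CD + PE replicate 2, and the division covariate gave 0.56 for Laptm5. The 48 named log2 fold changes were recomputed 444 times under settings that kept every library or 1 side of the division, of which 5 lost a call, 29 gained one and 1 turned sign; of 912 recomputations without 1 library, 8 lost a call, 20 gained one and 7 turned sign. The causes were not tested. Depth limits members under 10 CPM most.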
